A study of Mus musculus with 23 samples.

Results

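Mouse embryonic stem (ES) cells from which the doxycycline that keeps their Ago2 on had been withdrawn were returned to a low dose of it, and their polyadenylated RNA was set against that of cells left without it. The comparison used 4 of the 23 samples of the series: 2 libraries from cells kept without doxycycline for 96 h and then returned to 0.1 µg/mL for 48 h, and 2 from cells taken at the end of the same 96 h without doxycycline. The line is Blm-/- and Ago1,2,3,4-/-, so it is labelled as lacking Blm, a helicase, and all 4 mouse Argonautes, and it carries CreERT2 and the doxycycline-dependent TT-FHAgo2. Both groups carry all of these alleles. Per the labels' protocols the clonal lines were propagated in 0.1 µg/mL doxycycline, so the low dose is the one that the cells had lived in before, and 2.5 µg/mL gives the wild-type level of Ago2. The cells grew on gelatin in serum with leukemia inhibitory factor (LIF), and the libraries kept the strand. The cells given 0.1 µg/mL were harvested 48 h later than their control, so dose and time in culture cannot be told apart in this comparison. Of 18412 genes in the tables, 13176 had a mean of at least 10 normalised exon reads over the 6 rescue libraries and were tested.

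Argonaute proteins carry microRNAs, which pair through a short seed at their 5′ end with sites in messenger RNAs, mostly in the 3′ untranslated region (UTR), and lower the stability and translation of those messengers. Tnrc6 scaffolds tie Argonaute to the deadenylase complexes that start the decay. In ES cells the miR-290/miR-302 and miR-17/20 families are abundant and are known for restraining G1/S inhibitors such as Cdkn1a and Rbl2, the Hippo kinase Lats2 and the Nodal antagonists Lefty1 and Lefty2. The let-7 family is held low by the RNA-binding protein Lin28a, which blocks let-7 maturation and is itself a let-7 target. A loaded Argonaute acts on mature messengers. Reads in exons come mostly from spliced RNA, while reads in introns stand for unspliced RNA.

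The mature sequences below are those whose seed matches were counted in 3′ UTRs, with the seed (bases 2 to 8) in capitals. They are written 5′ to 3′ and come from RefSeq on GRCm38.p6. The first 3 share the miR-290/miR-302 seed, the next pair share the miR-17/20 seed, which is the same run moved by 1 base, let-7a stands for a family that ES cells hold low, and miR-206, known from muscle, stands for a family of unrelated seed.
mmu-miR-294-3p: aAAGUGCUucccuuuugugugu
mmu-miR-291a-3p: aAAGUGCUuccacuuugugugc
mmu-miR-302b-3p: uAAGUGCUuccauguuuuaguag
mmu-miR-17-5p: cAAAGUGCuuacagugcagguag
mmu-miR-20a-5p: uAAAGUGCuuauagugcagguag
mmu-let-7a-5p: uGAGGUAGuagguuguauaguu
mmu-miR-206-3p: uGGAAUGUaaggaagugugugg

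The seed matches below lie in the 3′ UTRs of the genes on which the target results turn, and were not tested as sites. The 7 bases complementary to the seed are in capitals, with 8 bases on either side (GRCm38, GENCODE M21 transcripts, the strand of the transcript). Lats2 and Cdkn1a each have a pair of miR-290/miR-302 matches and Lefty1, Lefty2, Rbl2, Irf2 and Casp2 each have 1. The Rbl2 match starts at base 1384 of a UTR of 1398 bases. The last 2 lines are let-7 matches of Lin28a.
Lats2, chr14:57691079-57691101 (-): atggaaagAGCACTTattttgtg
Lats2, chr14:57690980-57691002 (-): tatctgatAGCACTTgtccacag
Cdkn1a, chr17:29099820-29099842 (+): acctgaatAGCACTTtggaaaaa
Cdkn1a, chr17:29100492-29100514 (+): ggtgtcaaAGCACTTagtgggtc
Lefty1, chr1:180938205-180938227 (+): gtatgcgaAGCACTTacatgtat
Lefty2, chr1:180897909-180897931 (+): ccagtttaAGCACTTacatgggt
Rbl2, chr8:91123822-91123844 (+): ttcaataaAGCACTTataaatta
Irf2, chr8:46846656-46846678 (+): tatcttgaAGCACTTacaatagg
Casp2, chr6:42281550-42281572 (+): aacctagaAGCACTTgtctctgc
Lin28a, chr4:134005182-134005204 (-): ctgttgaaCTACCTCatttttgc
Lin28a, chr4:134004544-134004566 (-): ccacaaacCTACCTCactgtgtt

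Exons had 27867338 and 24702128 reads per library at 0.1 µg/mL against 34601588 and 31909048 without doxycycline, and introns 3927688 and 3520453 against 4812042 and 4340749. Libraries of 1 group differed by a median of 0.0951 on the log2 scale in exons at 0.1 µg/mL and 0.0825 without doxycycline, and log2 changes had a median standard error of 0.0910 in exons and 0.182 in introns. The deeper library of each pair is called the first, since the columns give no replicate number. Nothing in the labels says that the 2 libraries of a group came from separate cultures, so the p-values measure the spread between these libraries, which may be technical. The label of ES cells held: Pou5f1, Nanog, Sox2, Esrrb and Zfp42, transcription factors of the pluripotent state, were among the abundant transcripts, the lowest value being 36015 normalised exon reads of Zfp42, and of 13 fibroblast feeder markers 6 reached the test, 1 (S100a6) was called, lower, a call lost without the second control library or the first at 0.1 µg/mL, and 2 were at 0. In bulk RNA, fewer cells of a kind and less RNA per cell cannot be told apart. The fit of limma on log2(normalised reads + 1) with Benjamini-Hochberg adjustment underlies each adjusted p given here, a gene is called below 0.05, and a value after ± is a standard error.

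At 0.1 µg/mL a large share of the transcriptome differed from the control by small amounts. Of the genes tested 5808 (44.1%) were called, 2900 (22%) higher and 2908 (22.1%) lower at 0.1 µg/mL, and the median size of a called change was 1.30-fold. Changes of at least 2-fold were called in 297 genes that rose and 199 that fell, and of at least 4-fold in 61 and 12. Over all genes tested the median log2 change was -0.01, and the medians of the autosomes and of X stayed between -0.04 and 0.04. The 6 genes tested on Y had a median of -0.15. Both low-dose libraries lay above both controls in 35.4% of genes and below both in 36.7%. On the first principal component of all 6 rescue libraries, which held 69.1% of the variance, the control pair sat at -46.1 and -47.9, the low-dose pair at 0.43 and -0.84 and the pair given 2.5 µg/mL at 47.2 and 47.2. The low dose lay near the middle of that axis. On the second component, with 11.4% of the variance, the low-dose pair sat at -16.1 and -26.9, apart from the control pair at 11.7 and 10.04 and the pair given 2.5 µg/mL at 13.7 and 7.56.

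Reads at the Ago2 gene did not climb with the dose. Ago2 had 7776 and 7672 normalised exon reads at 0.1 µg/mL and 7260 and 7300 without doxycycline (log2 change 0.09 ± 0.05, adjusted p = 0.211). At 2.5 µg/mL it had 6093 and 5284, a fall of 0.44 relative to 0.1 µg/mL. The groups at 0.1 µg/mL and without it did not overlap, and the difference did not pass the test. The labels do not say which exons are deleted or whether transgene reads map to the gene, so the induced Ago2 was not measured apart. Ago1 had 0 reads in every rescue library, and Ago4 had 21.4 and 8.49 at 0.1 µg/mL against 42.3 and 23.7 (adjusted p = 0.155). Ago3 rose, with 2452 and 2380 reads at 0.1 µg/mL against 1962 and 1915 (log2 change 0.32 ± 0.06, adjusted p = 0.000117), and its introns rose by 0.45. Blm had 4036 and 4132 reads at 0.1 µg/mL against 3769 and 3749 (0.12 ± 0.05, adjusted p = 0.0669).

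Around the Argonautes, 28 genes of the microRNA pathway were tested, of which 5 rose, 6 fell and 17 did not pass, near the shares of all genes. The counts dropped to 3 risen without the second control library and to 3 fallen without the first control library or the first at 0.1 µg/mL. The risen ones were Lin28a, Ago3, Ajuba, Tarbp2, which pairs with Dicer, and the decay helicase Ddx6. Among the fallen ones the silencing scaffold Tnrc6b had 7336 and 7641 reads at 0.1 µg/mL against 11156 and 11407 (log2 change -0.59 ± 0.05, adjusted p = 1.83e-10). Tnrc6a fell by 0.45 and the deadenylase Cnot6 by 0.57, whereas Cnot6 introns rose by 0.41. Dicer1 fell by 0.12. The processing factors Drosha and Dgcr8 and the export factor Xpo5 did not pass, with log2 changes of 0.04, 0.03 and -0.00.

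Most members of a list of known targets of the ES-cell microRNAs fell. This and the other lists were chosen with earlier results of these data known, so their counts are descriptions and not independent tests. Of 30 tested members of the target list 26 fell, 0 rose and 4 did not pass, against 22.1% of all genes falling. The list's median log2 change was -0.43 in exons and, over the 28 with introns tested, -0.04 in introns. The count of fallen members stayed between 23 and 26 when any 1 library was left out. Among those that did not pass were E2f1, Cdk2 and Kdm2b, with changes of -0.07, -0.00 and 0.00.

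Lats2, a kinase of the Hippo pathway that shuts out Yap, had 950 and 914 reads at 0.1 µg/mL against 2231 and 2139.5 without doxycycline (log2 change -1.23 ± 0.09, adjusted p = 1.42e-11). Cdkn1a, the p21 inhibitor of cyclin-dependent kinases, had 2643 and 2581 against 5742 and 5641 (-1.12 ± 0.06, adjusted p = 5.06e-14). Rbl2, the p130 pocket protein that holds E2F factors, had 1370 and 1359 against 2992 and 3008 (-1.14 ± 0.08, adjusted p = 6.98e-12). In all 3 the libraries of a group lay close together and the groups were more than 2-fold apart. Their introns changed by less and were not called, with log2 changes of -0.46, -0.51 and -0.09. In the tests of exon against intron change given further down, Lats2 and Cdkn1a were not called, and Rbl2 was called only in the setting chosen later.

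Lefty1 had 5759 and 6107 reads at 0.1 µg/mL against 13977 and 13064 (log2 change -1.19 ± 0.06, adjusted p = 1.77e-14). Lefty2 had 6746 and 7556 against 16132 and 15403 (-1.14 ± 0.05, adjusted p = 3.74e-15). The paralogues moved by near-equal amounts, and reads that fit both could be shared between them. The Tgf-β receptor Tgfbr2 had 156 and 173 reads against 374 and 348 (-1.13 ± 0.20, adjusted p = 3.08e-05). The interferon-pathway factor Irf2 had 72.9 and 113 reads against 262 and 262 (-1.52 ± 0.38, adjusted p = 0.00167), the largest fall of the list and, with the orphan nuclear receptor Nr2f2 (-1.26 ± 0.24), among its least precise. Further down the list the antiproliferative gene Btg2 fell by 0.82, the repressor Zbtb7a by 0.78, the caspase Casp2 by 0.67 and Tob1 by 0.64, while Zbtb7a introns changed by -0.00 and Casp2 introns by 0.31, neither called. The smallest called falls were those of cyclin D1 (Ccnd1) and Arid4b, each 0.17. Membership of the list did not require a seed match: the UTRs of Nr2f2, Btg2 and Tob1 held 0 miR-290/miR-302 and 0 miR-17/20 matches.

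**Figure D1:**
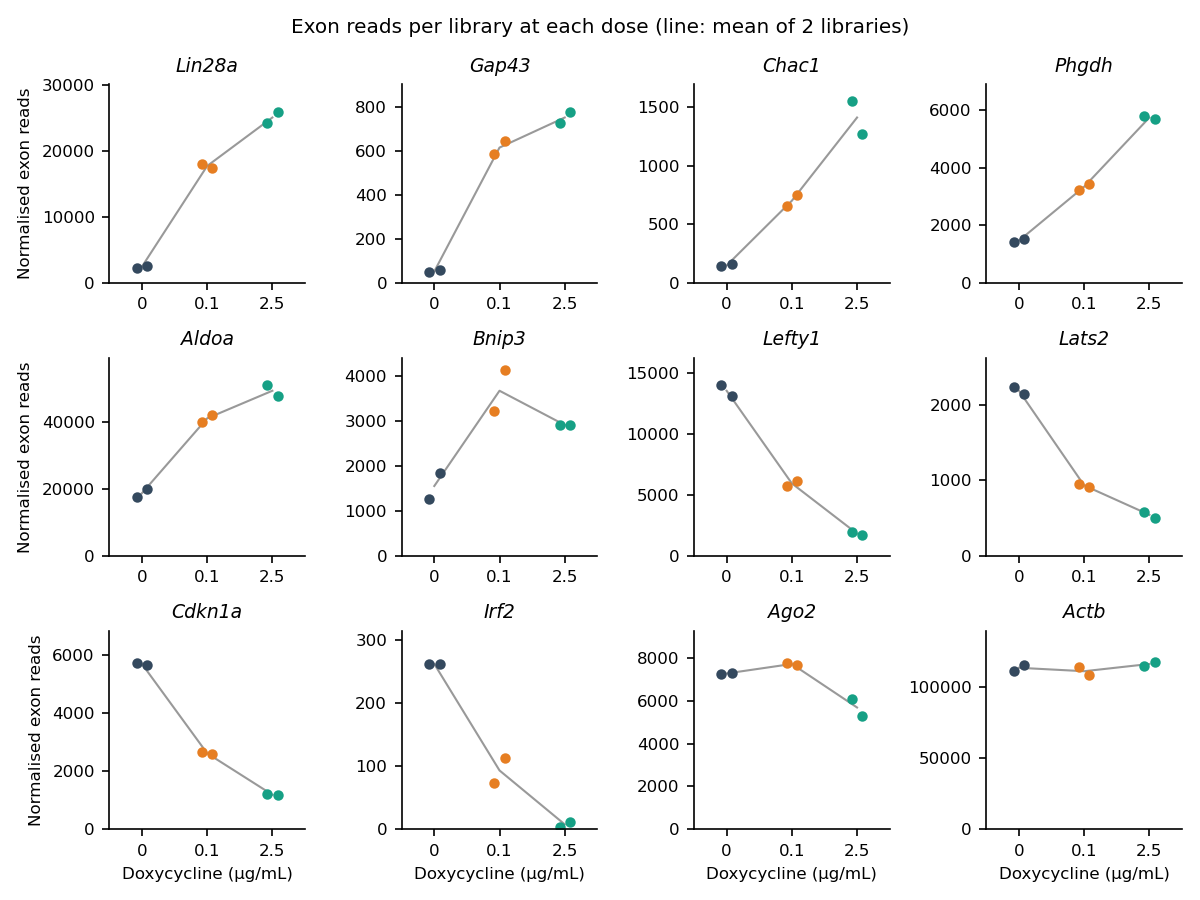
Normalised exon reads (y axes, starting at 0) of 12 genes in each library at 0, 0.1 and 2.5 µg/mL doxycycline (x axes, evenly spaced), with a line through the means of 2 libraries. Lin28a, Gap43, Chac1, Phgdh and Aldoa climb and Lefty1, Lats2, Cdkn1a and Irf2 drop with most or part of the distance covered at 0.1 µg/mL, Bnip3 is highest at 0.1 µg/mL, and Ago2 and Actb show no climb.

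Across all genes, the share that fell was larger among those with a seed match for the ES-cell families, a description with no test. Sites were counted as exact matches on the transcript strand in the longest 3′ UTR of 13101 tested genes, of which 22.0% rose and 22.1% fell. The miR-290/miR-302 match AGCACTT was in 2240 genes, 17.1% of all, and of these 14.7% rose and 35.7% fell, with a median log2 change of -0.12 in exons and -0.01 in introns. Among the 10861 genes without it 23.5% rose and 19.3% fell. With at least 2 matches to miR-17/20 (GCACTTT), 49.5% of 279 genes fell. With at least 2 to miR-206, whether or not an ES-cell match was also present, 36.9% of 187 fell. Median UTR lengths were 3926 and 3762 bases, against 1146 for all genes.

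Long UTRs hold more matches, so the shares were also taken among UTRs of 1000 to 3000 bases. There 46.7% of 180 genes with a miR-290/miR-302 match followed by A (AGCACTTA) fell and 6.67% rose, with a median of -0.25. For any AGCACTT the shares were 35.2% falling and 13.8% rising of 1037 genes, and for GCACTTT 38.1% and 15.3% of 835. The matches of the 2 families overlap, since AGCACTTT holds both, and 1029 genes of any UTR length had both. Let-7 matches (CTACCTC) without either of them were in 450 genes, of which 20.7% fell and 21.6% rose. Matches of miR-206 (ACATTCC) without either were in 439 genes, of which 24.4% fell and 18.2% rose. Of 3698 genes with neither ES-cell match 20.2% fell and 23.2% rose. A match is a run of letters and was not tested as a site. None of the 12 largest rises had a miR-290/miR-302 match, and of the 12 largest falls 4 had one, beside 17.1% of all genes with a UTR. These are small counts from UTRs of unlike length.

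**Figure D2:**
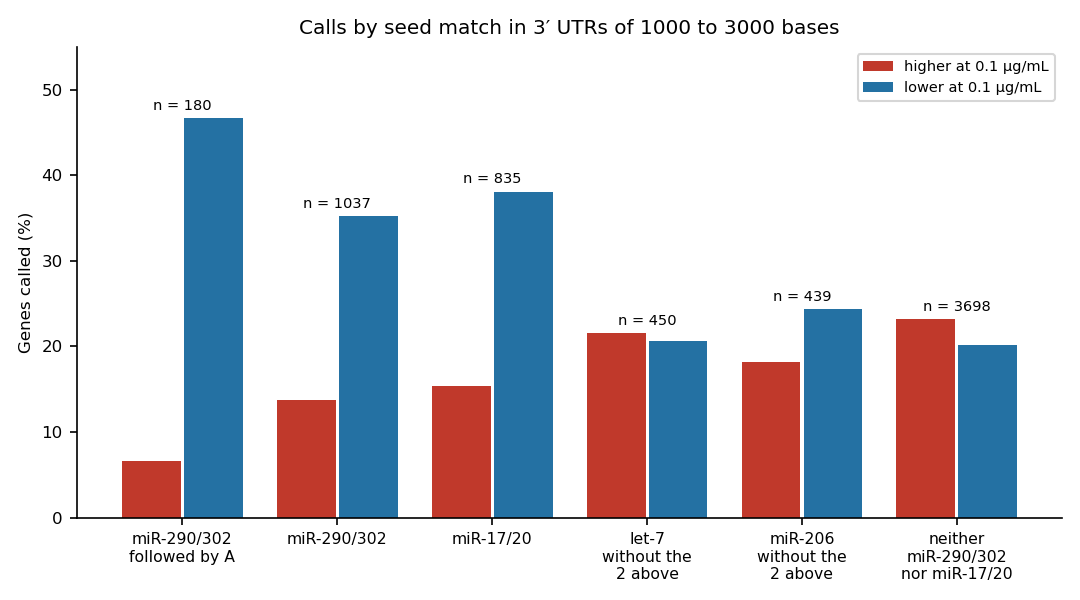
Percent of genes called higher (red) and lower (blue) at 0.1 µg/mL against none, among genes with 3′ UTRs of 1000 to 3000 bases, by the seed match that the UTR holds; n is the number of genes. Genes with a miR-290/miR-302 match followed by A show 46.7% lower and 6.67% higher, against 20.2% lower and 23.2% higher where neither ES-cell match is present.

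Let-7 targets split. Of 20 tested, 7 rose, 6 fell and 7 did not pass (median log2 change -0.06), and the count of fallen members was 4 and 2 without the first and second control library and 3 without either library at 0.1 µg/mL. Lin28a (ENSMUSG00000050966, chromosome 4, 134003330 to 134018841) had 17978 and 17434 reads at 0.1 µg/mL against 2297 and 2563 without doxycycline (log2 change 2.87 ± 0.05, adjusted p = 1.07e-24). Its introns rose with it, with 50 and 72.3 reads against 8.65 and 13.5 (2.37). Sall4, Nras, Hras and the phosphatase Cdc25a rose by 0.38, 0.50, 0.50 and 0.31. The UTR of Nras holds 2 miR-290/miR-302 matches and 1 let-7 match, and that of Hras holds 0 let-7 matches. The zinc-finger factor Plagl2 fell by 0.81 and the chromatin protein Hmga2 by 0.19. Trim71, a ubiquitin ligase with 4 let-7 matches in its UTR, did not pass in exons (0.07), while its introns rose by 0.59.

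Among called genes with a mean of at least 100 reads over the 4 libraries, the 12 largest rises were of varied kinds. Gap43 (ENSMUSG00000047261, chromosome 16, 42248442 to 42340651), a growth-cone protein of neurons, had 584 and 646 reads at 0.1 µg/mL against 46.3 and 56.0 (log2 change 3.57 ± 0.15, adjusted p = 2.01e-15). Its introns had 157 and 143 reads against 8.65 and 21.2, and at 2.5 µg/mL its exons had 727 and 777. After Gap43 and Lin28a followed Tmem150a, the glutathione-degrading enzyme Chac1, the fatty-acid synthesis regulator Mid1ip1, Ubap1l, the zinc-finger gene Zmat4, the endoplasmic reticulum retrieval receptor Kdelr3, Steap1, the pro-apoptotic BH3-only gene Hrk and the secreted phospholipases Pla2g12a and Pla2g1b, with log2 changes of 2.29 down to 1.91. Of these 12 genes, 10 had introns that reached the test, and in 8 of them the introns rose as well.

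By the same rule the largest falls were those of Zbp1, a sensor of Z-form nucleic acids, and of Cemip, which takes part in hyaluronan breakdown. Zbp1 had 44.0 and 62.2 reads at 0.1 µg/mL against 234 and 274 (log2 change -2.25 ± 0.34, adjusted p = 5.04e-06). Cemip had 244 and 264 against 1114 and 1220 (-2.19 ± 0.14, adjusted p = 3.72e-12). Among those that followed, from -2.02 to -1.52, were the epithelial Ets factor Ehf, Cd4, the phosphatase Dusp8, Wnt3a, the tubulin glycylase Ttll3, the chitinase Chit1, the metalloprotease Mmp23, Rasgef1a and Gdpd5. The Chit1 call was lost without the first library of the control and the Dusp8 call without the second at 0.1 µg/mL. Introns of Cemip, Wnt3a, Mmp23 and Gdpd5 fell too, by 1.48, 1.67, 1.44 and 1.48.

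Atf4, a transcription factor translated when eIF2α is phosphorylated, drives amino acid synthesis and uptake, and genes under it rose. Of 28 integrated stress response genes 22 rose, 1 fell and 5 did not pass, against 22% of all genes rising, with a median log2 change of 0.55 in exons. In introns 12 of 24 rose and 0 fell (median 0.60), where 5.33% of all genes tested rose. Without any 1 library 21 or 22 members still rose.

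The serine synthesis enzyme Phgdh had 3228 and 3449 reads at 0.1 µg/mL against 1402 and 1520 without doxycycline (log2 change 1.19 ± 0.06, adjusted p = 1.8e-14). Chac1 had 652 and 747 against 138 and 155 (2.25 ± 0.12, adjusted p = 1.2e-13). Trib3, a pseudokinase that Atf4 induces, had 2038 and 2168 against 982 and 1016 (1.07 ± 0.07, adjusted p = 1.73e-12). The groups of these genes stood apart by 2-fold or more. Atf4 itself had 15099 and 14465 against 10708 and 10725 (0.46 ± 0.04, adjusted p = 1.73e-09). The rest of the serine pathway followed, with Psat1 at 0.62, Psph at 0.76 and the mitochondrial folate enzymes Mthfd2 and Shmt2 at 0.71 and 0.50, and so did asparagine synthetase (Asns, 0.51), the amino acid carriers Slc7a5, Slc3a2 and Slc7a3 (0.46, 0.58 and 0.35) and the hormone Stc2 (1.48). The cystine carrier Slc7a11 rose by 1.82 from few reads, 35.2 and 48.1 against 13.8 and 8.62. The exception that fell was Atf5, with 2156 and 2212 against 2780 and 2945 (-0.39 ± 0.06, adjusted p = 5.57e-06). The stress factors Ddit3 and Atf3 did not pass, with 107 and 187 reads against 156 and 170 for Ddit3 and 74.1 and 70.7 against 76.8 and 69.0 for Atf3, and neither did Sesn2, Cth and Pycr1.

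Glycolysis and hypoxia genes rose as well, beside 22% of all genes rising and 22.1% falling. Of 30 tested, 20 rose, 2 fell and 8 did not pass (median log2 change 0.47), and in introns 15 of 27 rose and 0 fell (median 0.54). The lactate exporter Slc16a3 had 4594 and 5480 reads at 0.1 µg/mL against 1363 and 2041 (1.59 ± 0.10, adjusted p = 2.86e-12). The mitophagy receptor Bnip3 had 3212 and 4124 against 1269 and 1834 (1.25 ± 0.11, adjusted p = 4.09e-10). Aldolase A (Aldoa) had 40076 and 42274 against 17613 and 19929 (1.14 ± 0.05, adjusted p = 2.78e-15). In all 3 the lower library at 0.1 µg/mL lay above the higher library of the control. The growth factor Vegfa rose by 0.90, lactate dehydrogenase (Ldha) by 0.72, the glucose carriers Slc2a1 and Slc2a3 by 0.70 and 0.53, and phosphoglycerate kinase (Pgk1) by 0.70, with Pgk1 introns at 1.31. Hexokinase 1 (Hk1) and the collagen prolyl hydroxylase P4ha1 fell by 0.45 and 0.24. Among the 8 that did not pass were the oxygen sensor Egln1, Pdk1, Ero1l and Ndrg1. This list also varied between libraries of 1 group: its summed reads were 470367 and 493265 at 0.1 µg/mL against 314662 and 338569, and Bnip3 and Slc16a3 were higher in the second library of both groups. The count of risen members was 15 to 20 without any 1 library. How far the time in culture takes part in these values was not tested.

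**Figure D3:**
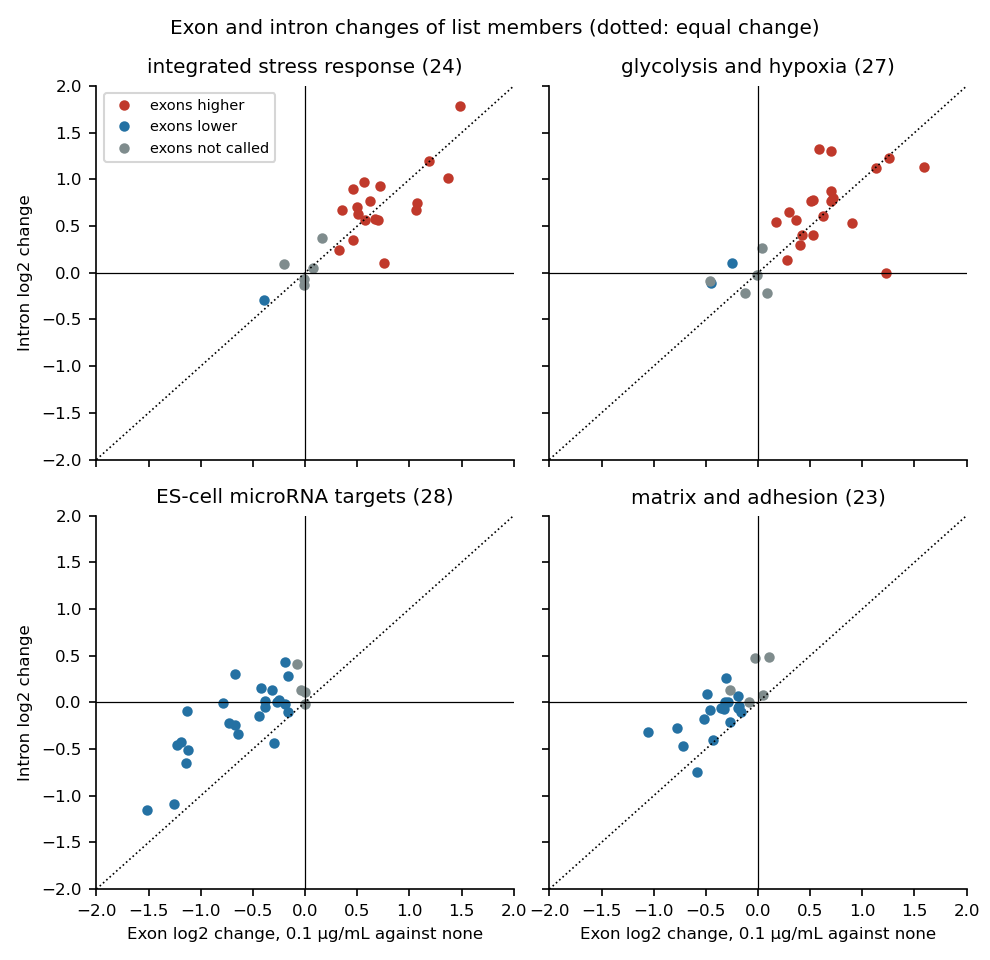
Log2 change in exons (x axis) and in introns (y axis) at 0.1 µg/mL against none for members of 4 gene lists tested in both, coloured by the exon call, with equal change as a dotted line. The integrated stress response list has a median change of 0.55 over 28 members tested in exons and 0.60 over 24 tested in introns. The glycolysis list has 0.47 over 30 and 0.54 over 27, and its members Pgk1, Gpi1 and Pfkp lie above the line. ES-cell microRNA targets and matrix genes lie to the left of it with intron changes around 0.

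Matrix and adhesion genes and interferon genes fell. Of 26 matrix and adhesion genes 19 fell, 0 rose and 7 did not pass, against 22.1% of all genes falling. The median log2 change was -0.30 in exons and, over the 23 with introns tested, -0.06 in introns. Itgav, the αV integrin, had 4828 and 4680 reads at 0.1 µg/mL against 8186 and 8079 (-0.77 ± 0.05, adjusted p = 4.69e-12). The thrombospondin Thbs1 fell by 1.08, the basement-membrane collagens Col4a1 and Col4a2 by 0.59 and 0.72, vimentin (Vim) by 0.52 and fibronectin (Fn1) by 0.29. E-cadherin (Cdh1) fell by 0.19.

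Of 25 tested genes of interferon signalling and nucleic acid sensing 15 fell, 2 rose and 8 did not pass, against 22.1% of all genes falling (median -0.67), and 11 to 16 fell without any 1 library. The interferon-response factor subunit Irf9 had 1074 and 1195 reads at 0.1 µg/mL against 2203 and 2250 (-0.97 ± 0.08, adjusted p = 4.84e-10). Irf1 fell by 0.67, the cytosolic DNA sensor cGAS (Mb21d1) by 0.69 and its adaptor STING (Tmem173) by 0.85. The RNA sensor Ddx58 rose by 0.35 and the tethering factor Bst2 by 0.99. Introns of 22 members had a median of -0.47 with 2 called lower. Reads of the near-identical Oas genes can be split by counting, and the calls of Oas1b and Oasl2 were each lost without the first library at 0.1 µg/mL and without either control library.

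Of 18 Hippo and Yap genes 10 fell, 2 rose and 6 did not pass, against 22.1% of all genes falling (median -0.16). Without any 1 of the 4 libraries 7 to 9 fell and 1 rose. Besides Lats2, the kinase Lats1 fell by 0.54, the scaffold Amotl1 by 0.67, Tead4, a partner of Yap, by 0.65 and Yap1 itself by 0.14. The Yap targets Cyr61 and Ctgf had 779 and 694 against 959 and 850 reads (-0.30 ± 0.10, adjusted p = 0.0156) and 1571 and 1567 against 1740 and 1684 (-0.13 ± 0.07, adjusted p = 0.169).

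The series is about the Tgf-β/Smad network, whose ES-cell branch runs from the ligand Nodal and its coreceptor Tdgf1 through activin receptors to Smad2 and Smad3. Of 22 tested pathway components 10 fell, 2 rose and 10 did not pass (median log2 change -0.17). Without the first control library 9 fell and 1 rose, and 8 fell without the second control library or either at 0.1 µg/mL. Of 21 Nodal and Smad2/3 targets 9 fell, 2 rose and 10 did not pass (median -0.33), and 6 fell without the first library at 0.1 µg/mL. Of all genes 22.1% fell.

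Among ligands and their helpers, Nodal had 4082 and 4422 reads at 0.1 µg/mL against 5083 and 4635 (-0.19 ± 0.06, adjusted p = 0.00636). The activin subunit Inhbb had 4078 and 4086 against 7182 and 7503 (-0.85 ± 0.05, adjusted p = 7.7e-13). The convertase Furin, which matures Nodal, fell by 0.76, and Tdgf1 rose, with 37426 and 38230 reads against 29804 and 31335 (0.31 ± 0.05, adjusted p = 3.43e-06). Among receptors and transducers Tgfbr1, Acvr1b and Acvr2b fell by 0.36, 0.25 and 0.19 and Smad3 by 0.44. Smad2, Smad4 and the inhibitory Smad7 did not pass, with changes of -0.09, 0.12 and 0.00. Among targets, Pmepa1 fell by 0.58 with its introns down by 0.46, and Skil, a feedback repressor, did not pass (0.09). Eomes rose from low values, with 190 and 180 reads at 0.1 µg/mL against 112 and 110 (0.73 ± 0.20, adjusted p = 0.00452).

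In the BMP branch 4 of 20 genes rose, 5 fell and 11 did not pass (median -0.14), near the 22% and 22.1% of all genes. Of these, 1 rose without the first control library or the second at 0.1 µg/mL, while 3 fell without the first control library. Bmp4 had 616 and 612 reads at 0.1 µg/mL against 321 and 290 (1.01 ± 0.12, adjusted p = 9.74e-08). Id1 and Id3, which BMP induces, rose by 0.26 and 0.28, Id4 fell by 0.71 and the homeobox gene Msx2 by 1.30. The Bmpr2 receptor fell by 0.27.

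**Figure D4:**
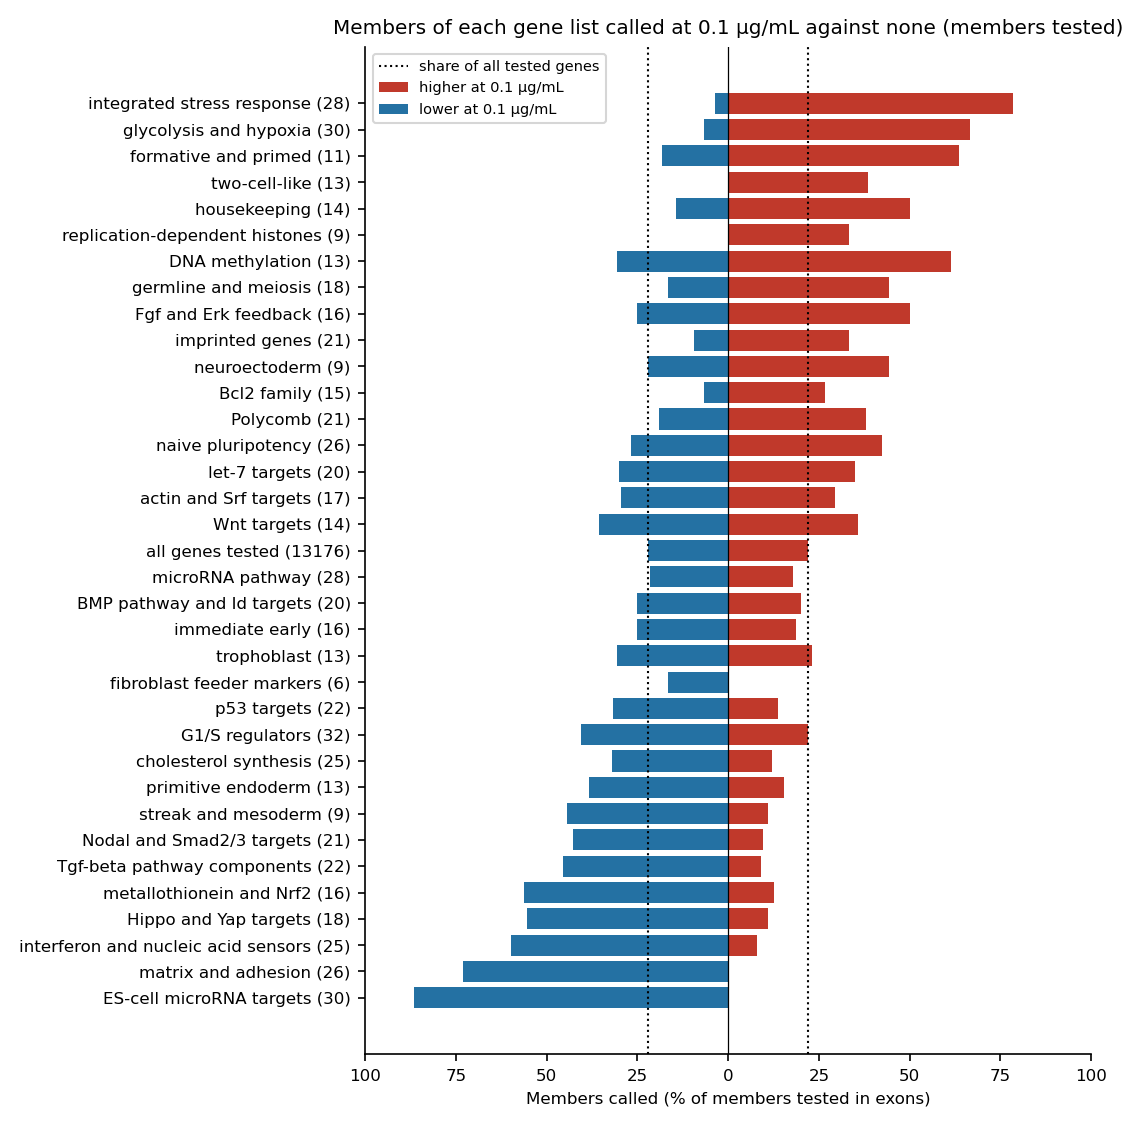
Percent of the tested members of each gene list called higher (red, to the right) and lower (blue, to the left) at 0.1 µg/mL against none; the number tested stands after each name and dotted lines mark the 22% and 22.1% of all genes. Integrated stress response, glycolysis and formative genes lean to the right, and ES-cell microRNA targets, matrix, interferon and Hippo genes lean to the left.

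Pluripotency genes moved in both directions and by little, beside 22% of all genes rising and 22.1% falling. Of 26 naive genes 11 rose, 7 fell and 8 did not pass (median 0.10). Nanog had 44471 and 42067 reads at 0.1 µg/mL against 49298 and 50256 (-0.20 ± 0.04, adjusted p = 0.000286), and Pou5f1 had 50293 and 49782 against 46091 and 47193 (0.10 ± 0.04, adjusted p = 0.0461). Sox2 did not pass (0.02). The Krüppel-like factor Klf2 fell by 0.59, Tfcp2l1 by 0.44 and Prdm14 by 0.62, while Nr0b1 and Utf1 rose by 0.49 and 0.50. Among 11 genes of the formative and primed states, 7 rose and 2 fell (median 0.21): Pou3f1 rose by 1.48, Lef1 by 1.19 and Etv4 by 0.80, and Otx2 fell by 0.37.

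DNA methylation genes moved in both directions, beside 22% of all genes rising and 22.1% falling. Of 13 tested, 8 rose and 4 fell. The methyltransferase cofactor Dnmt3l had 10804 and 11454 reads at 0.1 µg/mL against 5091 and 5305 (1.10 ± 0.05, adjusted p = 2.78e-15), and Dnmt3b rose by 0.84, Dnmt3a by 0.27 and the maintenance factor Uhrf1 by 0.14. The reader Mbd2 fell by 0.68 and the oxidase Tet3 by 0.63. In the list for the 2-cell-like state, 5 of 13 genes rose and 0 fell (median 0.42), and 2 rose without the second control library and 3 without any other of the 4 libraries. Zscan4d had 667 and 525 reads against 455 and 387 (0.50 ± 0.13, adjusted p = 0.0021), and reads of the near-identical Zscan4 copies can be split among them.

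Cell-cycle and survival genes were mixed, beside 22% of all genes rising and 22.1% falling. Among 32 regulators of G1/S, 13 fell and 7 rose (median -0.13), and 8 and 7 fell without the first and second control library. Besides Cdkn1a and Rbl2, the pocket proteins Rb1 and Rbl1 fell by 0.52 and 0.44 and Cdk6 by 0.34. Myc had 1684 and 1696 reads at 0.1 µg/mL against 686 and 721 (1.26 ± 0.07, adjusted p = 4.15e-13), and cyclin E1 (Ccne1) and Cdk4 rose by 0.24 and 0.22. Among 22 targets of p53, 7 fell and 3 rose (median -0.05), 1 having risen without the second control library or the first at 0.1 µg/mL, with Rrm2b down by 0.90 and Perp by 0.69, and Trp53 and Mdm2 did not pass. Of 15 Bcl2-family genes 4 rose and 1 fell (2 without the first library at 0.1 µg/mL): the BH3-only gene Hrk had 160 and 182 reads against 41.4 and 43.1 (1.99 ± 0.20, adjusted p = 1.14e-08), and Bcl2l11, which encodes Bim, had 2322 and 2287 against 2768 and 2788 (-0.27 ± 0.06, adjusted p = 0.000646).

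Signalling and differentiation lists gave the following counts, beside 22% of all genes rising and 22.1% falling. Of 16 Fgf and Erk feedback genes 8 rose and 4 fell: Spry2 had 4118 and 4106 reads at 0.1 µg/mL against 2226 and 2292 (0.86 ± 0.05, adjusted p = 9.1e-13), the phosphatases Dusp4 and Dusp6 rose by 0.91 and 0.53, and the ligand Fgf4 fell by 0.39. Of 14 Wnt genes 5 rose and 5 fell (3 fell without the second library of either group), the feedback inhibitor Axin2 rising by 1.40 and the Wnt-inactivating Notum falling by 1.17. Of 21 Polycomb genes 8 rose and 4 fell, among them the core subunits Eed (0.35) and Ezh2 (0.18) and the lower Ezh1 (-0.48). Of 9 streak and mesoderm genes 1 rose and 4 fell, Wnt3a by 1.69, Snai1 by 1.06 and Evx1 by 1.04. Primitive endoderm (2 rose and 5 fell of 13), trophoblast (3 and 4 of 13) and neuroectoderm (4 and 2 of 9) genes moved in both directions. Without any 1 of the 4 libraries 1 primitive endoderm gene rose, and without the second control library or the first at 0.1 µg/mL 2 neuroectoderm genes rose and 1 fell. Of 18 germline genes 8 rose and 3 fell (5 rose without the first library of either group and 1 fell without the second control library), Dazl by 0.99 among the risen, and of 21 imprinted genes 7 rose and 2 fell (1 without the first control library or the second at 0.1 µg/mL), with Mest up by 0.81 and Plagl1 down by 1.06.

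The remaining lists concern housekeeping and stress, and their counts stand beside 22% of all genes rising and 22.1% falling. Of 16 metallothionein and Nrf2 genes 9 fell and 2 rose (median -0.20), 6 falling without the second control library or either at 0.1 µg/mL: Mt1 and Mt2, which bind zinc, each fell by 0.39, and the heme oxygenase Hmox1 had 5788 and 6047 reads at 0.1 µg/mL against 2966 and 3319 (0.91 ± 0.05, adjusted p = 6.37e-13). Of 25 cholesterol synthesis genes 3 rose and 8 fell (median -0.06), 5 falling without the second control library or the first at 0.1 µg/mL and 1 rising without the second at 0.1 µg/mL. Of 16 immediate early genes 3 rose and 4 fell, and of 17 actin and Srf genes 5 and 5. Without the first library at 0.1 µg/mL 3 of the actin and Srf genes rose, and without any other of the 4 libraries 3 fell. Of 9 genes listed as replication-dependent histones, a class whose messengers mostly lack a poly(A) tail, 3 rose and 0 fell (median 0.59). They were listed as a sign of RNA selection. Annotated 3′ UTRs of members ran from 48 bases (Hist1h1a) to 4931 (Hist1h1d), and whether each member's messengers lack a tail was not tested. Summed reads of the list were 24411 and 22936 at 0.1 µg/mL against 15960 and 15537, and the part of RNA selection in the other results was not tested. Of 14 housekeeping genes 7 rose and 2 fell with a median of 0.09 (0 fell without the second control library and 1 without any other of the 4): Actb and Eef1a1 did not pass (-0.03 and 0.00), while Gapdh and Rplp0 each rose by 0.51.

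Intron changes had the sign of the exon change in most genes with called exons, and most were not called on their own. The intron fit called 1197 of 11580 genes (10.3%), 617 (5.33%) upward and 580 (5.01%) downward. Leaving out a library of either group compared gave 414 to 452 calls, and leaving out one at 2.5 µg/mL, which shares its spread in the fit, gave 2012 and 2014. Of 2613 genes with higher exons that had introns tested, 462 rose and 10 fell in introns, and the intron change was above 0 in 2106. Of 2745 with lower exons 438 fell and 20 rose, and 2186 were below 0. Of 5937 genes whose exons did not pass, the intron change was above 0 in 2934. Among the 160 whose exons rose at least 2-fold the median change was 1.31 in exons and 1.04 in introns, and among the 140 that fell as far -1.16 and -0.89.

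The difference of exon and intron changes was also tested gene by gene. In limma with a trend on the mean difference 0 of 11295 genes were called, 1330 having an unadjusted p below 0.05. With the trend on mean intron reads instead, a setting chosen after that result was seen, 275 genes (2.43%) were called, 135 (1.2%) higher and 140 (1.24%) lower in exons relative to introns. Without either library at 0.1 µg/mL it called 26 and 42, without either control library 50 and 53, and without either at 2.5 µg/mL 582. Which intron library belongs to which exon library was decided by weak correlations, and with the opposite choice 124 were called. The values in the next paragraph come from that setting.

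Rrm2b, a p53-induced ribonucleotide reductase subunit, had 669 and 532 exon reads at 0.1 µg/mL against 1124 and 1107, and 2105 and 1756 intron reads against 1408 and 1409. Exons fell by 0.90 and introns rose by 0.45, a difference of -1.34 (adjusted p = 3.02e-08). Xrcc4, of DNA end joining, had 166 and 236 exon reads against 407 and 388 and an intron change of 0.22 (difference -1.21, adjusted p = 0.000514). In the other direction Timm9, a chaperone of the mitochondrial intermembrane space, had 728 and 854 exon reads against 427 and 385 and 1133 and 1175 intron reads against 1101 and 1193 (difference 0.96, adjusted p = 4.01e-05). Chchd7 (1.13), Cox20 (0.98) and Cmc2 (0.97), which encode small mitochondrial proteins, were the others among the 6 largest differences upward together with Ctnnbip1 and Ift27. Of 28 ES-cell microRNA targets 4 were called lower, Rbl2 (-1.03), Casp2 (-0.96), Zbtb7a (-0.77) and Ei24 (-0.49), and 0 higher. Of 27 glycolysis and hypoxia genes 3 were called lower, among them Gpi1 (-0.36) and Pfkp (-0.33), and 0 higher. Of all genes tested 1.24% were called lower. Plagl2, of the let-7 target list, had a difference of -1.16 (adjusted p = 0.0385), and its UTR holds 2 miR-290/miR-302 matches and 1 miR-17/20 match beside 1 let-7 match. Rrm2b and Timm9, whose differences had opposite signs, each hold 1 miR-290/miR-302 match.

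The doses also differed from each other. At 2.5 against 0.1 µg/mL 5403 genes (41%) were called, 2639 (20%) higher and 2764 (21%) lower, and falls were larger than rises: 411 fell and 80 rose at least 2-fold. This comparison shares the 0.1 µg/mL libraries with the main one, so each comparison's own values are given side by side. Of 30 ES-cell microRNA targets 21 fell between the doses, 2 rose and 7 did not pass (median -0.45). From none to 0.1 to 2.5 µg/mL, Lefty1 had 13977 and 13064, then 5759 and 6107, then 1949 and 1697 reads, so that its step of -1.70 between the doses was larger than the -1.19 before it. Irf2 (262 and 262, then 72.9 and 113, then 3.92 and 11.1) stepped by -1.52 and -3.57, and Rbl2 by -1.14 and -1.72. Cdkn1a stepped by -1.12 and -1.14. Lats2 stepped by -1.23 and then -0.78. Rhoc rose between the doses (0.36) after a fall of 0.32.

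Of 28 integrated stress response genes 26 rose between the doses and 0 fell (median 0.61). In the same order of doses Chac1 had 138 and 155, then 652 and 747, then 1554 and 1266 reads. Ddit3 and Atf3, which had not passed at 0.1 µg/mL, rose by 1.35 and 1.29 between the doses. Glycolysis and hypoxia genes split at this step, 8 up and 8 down of 30 (median -0.06). Bnip3 fell by 0.32 to 2904 and 2911 reads at 2.5 µg/mL, Pfkp and Pfkfb3 fell by 0.39 and 0.32, and Ldha, Slc16a3 and Pgk1 did not pass (0.07, 0.13 and -0.00), whereas Slc2a3 and Gapdh rose by 0.71 and 0.51. The hypoxia-induced peptide gene Adm had 7.88 and 10.8, then 12.6 and 36.8, then 0 reads in both libraries. Among the named rises, Gap43 and Pla2g12a did not pass between the doses (0.29 and -0.13), while Ubap1l and Hrk rose by 1.41 and 1.28.

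The independent time course of doxycycline removal shows how these genes differed after 96 h without doxycycline, a comparison called loss here. By the labels its 96 h cells also had a longer schedule than its 0 h cells, so Ago2 and time in culture cannot be told apart in it. There the cells had been held at 2.5 µg/mL for 48 h, and 96 h without doxycycline was set against 0 h (2 libraries each), where 8867 of 13652 genes (65%) were called. Of 13149 genes tested in both, 4368 had risen on loss, and of these 2600 (59.5%) fell at 0.1 µg/mL and 38 rose. Of 4366 that had fallen on loss 2572 (58.9%) rose at 0.1 µg/mL and 20 fell. Of 4415 not called on loss 286 fell and 290 rose. As shares of the low-dose lists, 88.7% of the 2900 risen genes had fallen on loss and 89.5% of the 2906 fallen genes had risen. Across genes, which are not independent, the changes had a Pearson correlation of -0.76.

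The return was partial in size. Among 1121 genes that had risen at least 2-fold on loss, 720 fell and 5 rose at 0.1 µg/mL, with a median change of 1.45 on loss and -0.70 at 0.1 µg/mL, beside -1.36 at 2.5 µg/mL against none. Among 577 that had fallen as far 367 rose and 1 fell, with medians of -1.38 on loss, 0.89 at 0.1 µg/mL and 1.36 at 2.5 µg/mL. Genes that had risen in exons with little intron change on loss (under 0.5, 122 genes) fell by a median of 0.68 in exons and 0.23 in introns, and those with more intron change (765 genes) by 0.71 and 0.60. Large changes on loss in genes of few reads were among those not called at the low dose: Aldh3b2 had 17.6 and 28.3 reads at 0.1 µg/mL against 29.5 and 38.8, and Zfp677 had 0 and 18.4 against 7.88 and 2.16.

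**Figure D5:**
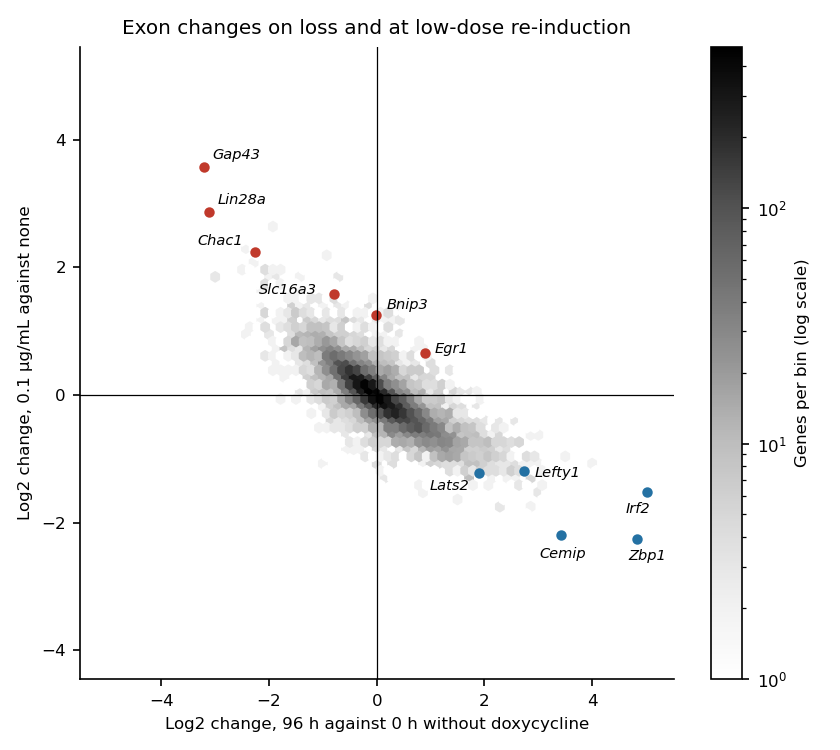
Log2 exon change at 0.1 µg/mL against none (y axis) and at 96 h against 0 h without doxycycline in the separate time course (x axis); shading gives the number of genes per bin on a log scale and points mark named genes. Most genes lie on a falling diagonal, with Gap43 and Lin28a at its upper left and Irf2, Zbp1 and Cemip at its lower right, while Bnip3 lies near 0 on the x axis and Egr1 is above 0 on both.

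A small set went the same way in both, named here after its values were seen. Of the 38 genes that rose both on loss and at 0.1 µg/mL, 5 belong to the glycolysis and hypoxia list, in which 13 of 30 genes were higher and 14 lower on loss (median -0.16): Tpi1, Gpi1, Pfkp, Pfkfb3 and Egln3, whose changes on loss were 0.31, 0.10, 0.14, 0.26 and 1.45 and at 0.1 µg/mL 0.37, 0.17, 0.30, 0.42 and 0.28. The Egln3 groups overlapped, with 1097 and 1471 reads at 0.1 µg/mL against 930 and 1178 (limma adjusted p = 0.0390). The immediate early gene Egr1 had 5123 and 5606 reads at 0.1 µg/mL against 3179 and 3665 (0.65 ± 0.06, adjusted p = 2.1e-09) and had risen by 0.89 on loss. Zscan4b, Zscan4d and Gm5662 of the 2-cell-like list rose in both as well, and of 11 members of that list tested on loss 9 had risen and 0 fallen. Among the 20 that fell in both were the kinase Prkdc, the thioredoxin Txn1 and lactate dehydrogenase B (Ldhb). As the low-dose cells were also 48 h longer in culture, time and Ago2 cannot be told apart for these genes.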

How the data were processed

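RNA-seq of mouse ES cells was used as the tables that the authors deposited, whose values are a signal: mean normalised reads per gene over the 2 libraries of a group, for exons and introns. The submitters' processing notes name TopHat2 2.0.12, mm10 and DESeq (version not given). Their read counter is not given in the sources used here, nor is their annotation. Each mean was a sum of whole reads divided by 2 size factors, and solving for both gave 1 solution for 100% of 18412 values in every column used (largest relative misfit 5.19e-15 in exons without doxycycline), so values per library were recovered.

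Genes averaging 10 or more normalised reads across the 6 rescue libraries were fitted with limma 3.58.1 (R 4.3.3) on log2(normalised reads + 1) with a trended prior over the 3 rescue groups. The time course was fitted over its own groups. Benjamini-Hochberg adjusted p below 0.05 was called, and the fit was tested on simulated data. The fold changes are on that log2 scale and understate those of low genes. The members and lists were chosen with earlier results of these data known. Named genes were the 12 largest called changes each way with at least 100 reads, the 6 largest each way in the other comparisons, the 4 most changed members of each of 34 lists (650 genes, 624 in the tables) and any member a result needed. Positions and 3′ UTRs came from GENCODE M21 (18002 genes matched by symbol, 327 by an older symbol, 83 unmatched). Alternatives changed the pseudocount, filter, scaling, groups fitted, weighting and libraries. Some genes are not reported here.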

Additional observations from a re-analysis of the deposited data

How the results depend on the processing

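In exons the 5808 calls became 4275 to 6200 under every alternative run, and none of 183 named genes changed direction, while 8 to 17 lost their call without a library of either group compared. In introns, 1197 calls became 2055 with the 2 groups fitted alone and 414 to 2014 without any 1 library. For exons minus introns, 0 calls became 275 with the prior following mean intron reads, a setting chosen after seeing the data, 124 with the libraries also matched the other way, and, in that setting without 1 library, 26 and 42 (0.1 µg/mL), 50 and 53 (none) and 582 (2.5 µg/mL). The cause was not tested. No paired analysis was possible because the columns carry no replicate number. Count-model tests on recovered reads were planned and not run. Log2 changes had a median standard error of 0.182 in introns and 0.0910 in exons, and the part of depth in the intron count was not tested.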

Other observations

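Several genes far from the lists' main themes moved by large amounts. Spink1, a trypsin inhibitor, had 151 and 142 intron reads at 0.1 µg/mL against 6.92 and 9.65 without doxycycline (log2 change 4.01), the largest intron rise among those with at least 50 intron reads. The epithelial tuft-cell factor Pou2f3 had 396 and 376 exon reads at 0.1 µg/mL against 85.7 and 134 (1.84 ± 0.17, limma adjusted p = 1.27e-09), and its introns rose by 1.80. The imprinted gene Magel2 had 80.4 and 96.2 reads against 3.94 and 8.62 (3.69 ± 0.38, limma adjusted p = 1.32e-08), and Ascl2, an imprinted trophoblast factor, rose by 1.65. The simple-epithelium keratins Krt8 and Krt18 fell by 0.96 and 0.64, Krt8 with 1105 and 1124 reads against 2217 and 2133. In the actin list the smooth-muscle genes Cnn1 and Myl9 rose by 1.84 and 1.07, while the caldesmon gene Cald1 and the Srf coactivator Mkl2 fell by 0.55 and 0.52. The call of Cnn1 was lost without the first library of either group.

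Some genes that fell at 0.1 µg/mL were lower again at 2.5 µg/mL. From none to 0.1 to 2.5 µg/mL, the cell-surface gene Megf11 had 1322 and 1260, then 459 and 460, then 79.1 and 53 reads. The interferon-induced GTPase Irgm1 had 365 and 425, then 182 and 231, then 30.1 and 25.3. The adhesion receptor Adgrg6 had 226 and 192, then 89.2 and 123, then 9.80 and 11.1. Cyclin G2 (Ccng2) was highest at 0.1 µg/mL, with 357 and 348, then 563 and 625, then 374 and 388 reads, and it had also risen by 0.83 on loss in the time course. Keratin 18 was lowest at 0.1 µg/mL, with 434 and 374, 253 and 266, and 448 and 421 reads.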
